A study of Mus musculus with 2 samples.

Results

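The interferon regulatory factors (IRFs) Irf1, Irf2, Irf3, Irf4, Irf5, Irf7, Irf8 and Irf9 were examined for accessible chromatin in mouse splenic B cells. These 8 genes, out of 22350 protein-coding genes annotated on chromosomes 1 to 19 and X, were taken as a list of named family members. Each gene body was extended by 50 kb on both sides, and every DNaseI hypersensitive site (DHS) that overlapped this window was assigned to the gene. The windows held 121 of the 47474 DHS on these chromosomes. The data came from 1 DNaseI-seq library of primary splenic B cells of C57/Bl6 mice, genotype Trp53+/+, mock treatment, 8 weeks old, without irradiation. Cells had been enriched with B220 MicroBeads, apoptotic cells had been removed on a Ficoll gradient, and isolated nuclei had been digested with DNase I, which cuts DNA where it is not protected by nucleosomes. A second library of the same cells served as input and is not analysed here. With 1 library there was no biological replicate, so all values below are descriptions of that library, without a test, and intervals cover counting error only.

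IRFs share a helix-turn-helix DNA-binding domain with a cluster of tryptophans that contacts short GAAA sites. A pair of these forms the interferon-stimulated response element (ISRE), and a GGAA site next to a GAAA site forms the Ets-IRF composite element (EICE), bound by Irf4 or Irf8 together with PU.1 or Spi-B. Irf3, Irf5 and Irf7 are activated by phosphorylation downstream of pattern recognition receptors, Irf9 is part of the ISGF3 complex, Irf1 and Irf2 act as activator and antagonist at shared sites, and Irf4 and Irf8 direct B cell differentiation, Irf4 towards plasma cells and Irf8 in germinal centre and earlier B cell stages.

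Several promoter and distal DHS held recognizable binding words in their DNA, and 5 stretches that are referred to again at the genes they belong to are shown here. They were chosen after the words had been found, and other stretches held as many. All are NCBIM37 (mm9) reference sequence, written 5′ to 3′, with the words in capitals. The promoter DHS of Irf1 held a GAS word, the STAT dimer site read as TTCNNNGAA, 86 bases before the main transcription start site (TSS), and a kappa B word, the NF-kappa B site, 9 bases before it (chr11:53583386-53583515, plus strand). The DHS just upstream of the Irf2 TSS held an EICE word (GGAANNGAAA), an ISRE word (GAAANNGAAA) sharing 4 bases with it and a GAS word within 60 bases (chr8:47824837-47824896, plus strand, overlapping an exon of the divergent noncoding gene Gm16675). The Irf8 promoter DHS held a pair of GAS words, centred 167 and 149 bases before the TSS (chr8:123260068-123260127, plus strand). The intergenic DHS 6.34 kb upstream of Irf1 held a GAS word running into a kappa B word and, further on, an ISRE word (chr11:53576482-53576559, plus strand). The DHS 60.3 kb downstream of the Irf8 TSS held 4 ISRE words that overlapped end to end (chr8:123319962-123320013, minus strand).
Irf1 promoter: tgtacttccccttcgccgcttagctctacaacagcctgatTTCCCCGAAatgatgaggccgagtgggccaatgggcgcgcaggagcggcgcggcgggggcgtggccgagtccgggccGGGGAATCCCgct
Irf2 promoter: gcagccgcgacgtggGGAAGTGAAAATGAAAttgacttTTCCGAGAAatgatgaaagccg
Irf8 promoter: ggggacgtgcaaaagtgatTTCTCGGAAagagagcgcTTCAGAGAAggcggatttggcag
Irf1 upstream DHS: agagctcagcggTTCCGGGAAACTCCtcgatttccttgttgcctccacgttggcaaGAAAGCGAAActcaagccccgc
Irf8 downstream DHS: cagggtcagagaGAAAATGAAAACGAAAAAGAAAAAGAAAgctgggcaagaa

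The list that carried these DHS gave a position and a score for each, the score being the peak caller's value on a scale that the sources used here do not state, so it was used only to order DHS within the list. Scores ran from 5.05 to 619.44 with a median of 32.65, and the median DHS was 760 bp wide. The read depth is unknown, so a region without a DHS is one where none was called. The labelled cell type was checked by the promoters of marker genes, a promoter being the 5 kb before and 2 kb after an annotated TSS. All 9 B cell markers had a promoter DHS and none of 7 T cell markers did. Of the other markers, 4 of 6 for plasmacytoid dendritic cells had a promoter DHS, but not Siglech or Klk1, as did 2 of 6 myeloid markers (Itgam and Cd14), 2 of 5 NK cell markers (Klrb1c and Prf1) and 3 of 4 plasma cell markers. Over all protein-coding genes the share was 57.0%, and these small marker lists were not tested against it. Several IRFs are also active in dendritic and myeloid cells, and the part of such cells in the DHS described below was not tested.

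All 8 Irf genes had at least 1 promoter DHS, while 57.0% of all protein-coding genes had one. The count stayed at 8 when the DHS had to reach the median score of the list, against 50.3% of all genes. The main TSS was the start shared by most protein-coding transcripts of a gene, or the most upstream of these in a tie. Irf1, Irf3, Irf5, Irf8 and Irf9 had as many annotated starts as transcripts. No start was shared there, so the most upstream start of a protein-coding transcript was used. The main TSS lay inside a DHS in 6 of 8 genes, the exceptions being Irf2 and Irf5, against 40.5% of all genes. A distal DHS, one in no annotated promoter window, lay within the gene body in 3 of 8 genes, Irf2, Irf4 and Irf8, against 19.9% of all genes. A promoter DHS was more frequent at CpG-rich promoters, with 85.6% of CpG-rich and 39.0% of other protein-coding genes having one. Irf1, Irf2, Irf3, Irf5 and Irf8 were CpG-rich, but Irf4, Irf7 and Irf9 were not and still had a promoter DHS.

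**Figure D1:**
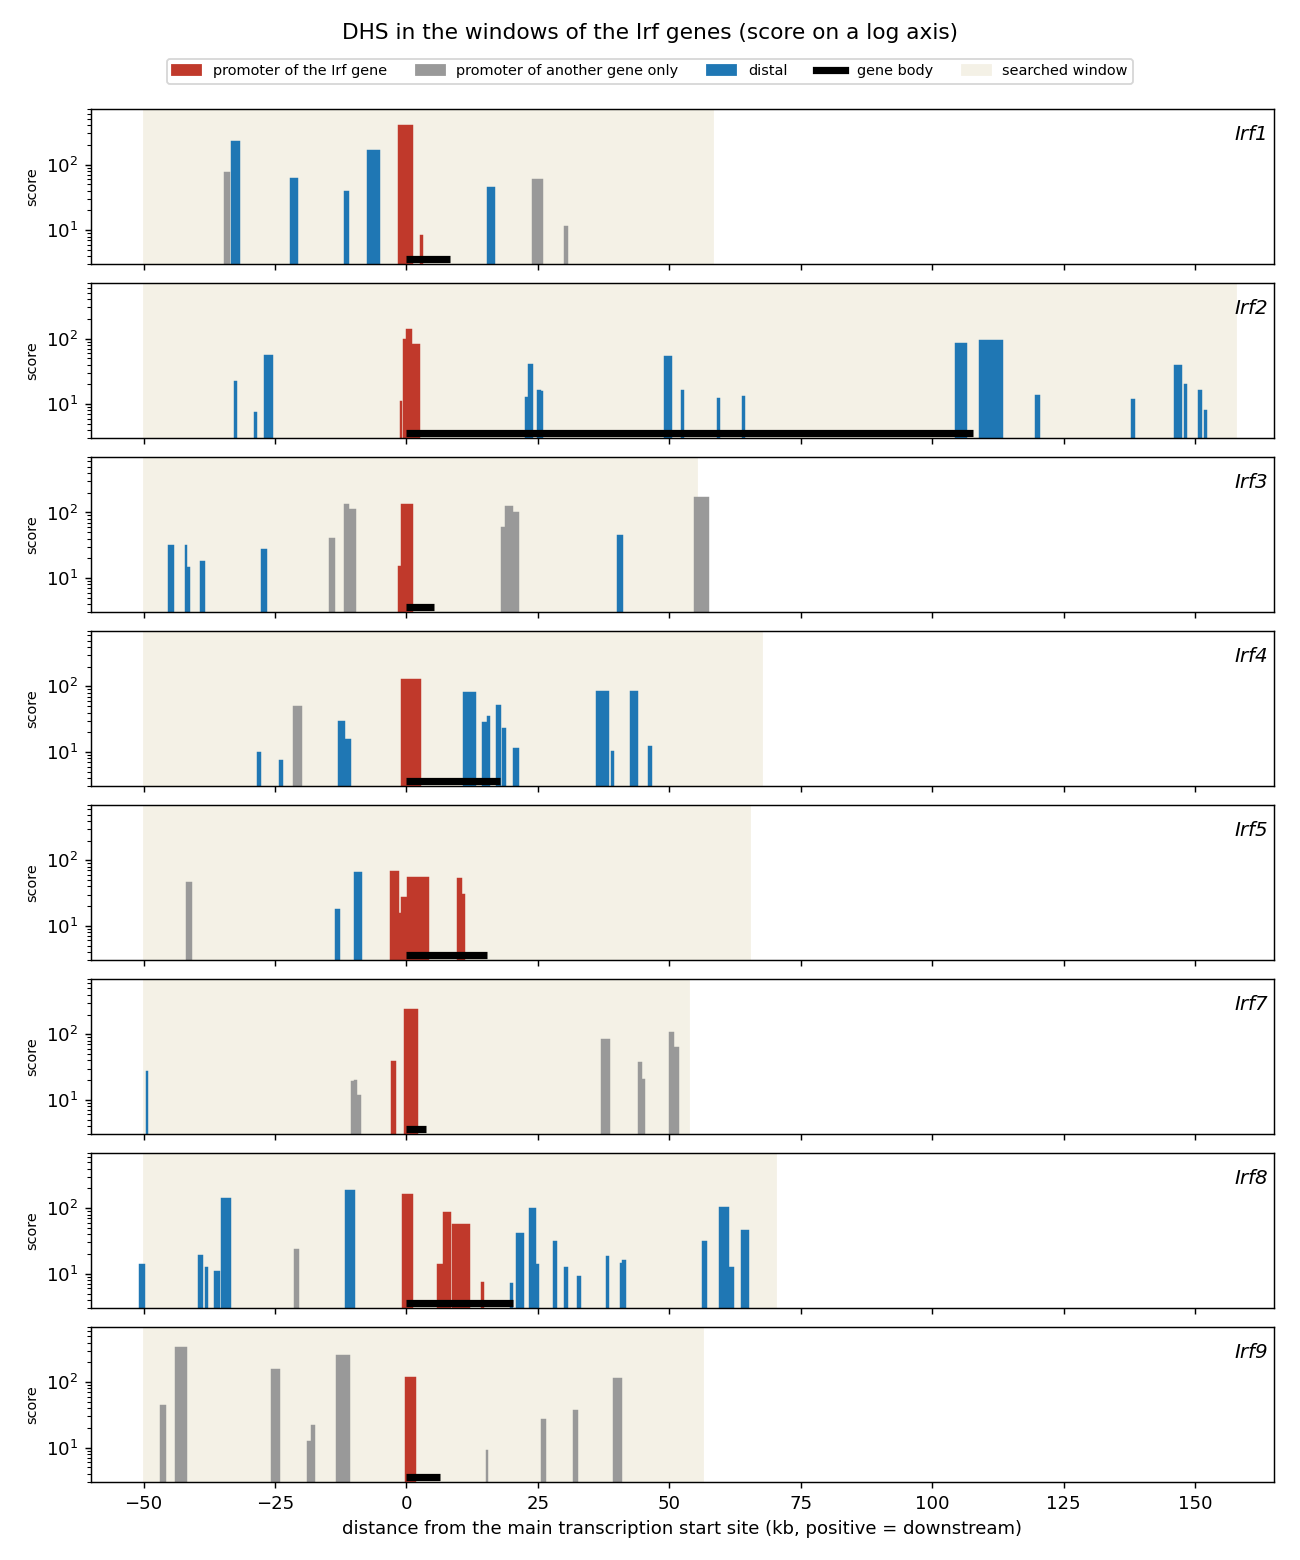
DHS in the windows of the 8 Irf genes, one panel per gene. The horizontal axis gives the distance from the main TSS in kb along the direction of transcription, bar width is the DHS width, and bar height is the score on a log axis. Red bars are promoter DHS of the Irf gene, grey bars promoter DHS of other genes only and blue bars distal DHS; the black line is the gene body and the shaded area the searched window. Blue bars dominate at Irf2, Irf4 and Irf8, and none is present at Irf9.

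The promoters of the family spanned a wide range of scores. The highest promoter score was 408.63 for Irf1, 241.89 for Irf7, 163.01 for Irf8, 138.09 for Irf2, 136.3 for Irf3, 129.72 for Irf4, 121.04 for Irf9 and 67.9 for Irf5. The median over the 8 genes was 137.2, beside a median of 101.22 over all protein-coding genes with a promoter DHS. Irf1 stood at the 99.0th percentile of those genes and Irf7 at the 92.5th, the other genes except Irf5 lay between the 61.7th and 78.8th, and Irf5 at the 29.8th. Without replicates, it could not be said whether the values from 121.04 to 138.09 differed beyond the error of the measurement.

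The order by width was another one. The widest promoter DHS spanned 3973 bp at Irf5, 3498 bp at Irf4, 3145 bp at Irf8, 2628 bp at Irf1, 2413 bp at Irf7, 2004 bp at Irf3, 1976 bp at Irf9 and 1261 bp at Irf2. The median of 2520.5 bp compared with 1400 bp over all genes with a promoter DHS, and 7 of the 8 genes lay between the 81.0th and 98.8th percentile of those genes, with Irf2 at the 40.4th. At Irf5 the widest DHS was not the one with the highest score: the DHS of 3973 bp scored 56.67, and the one that scored 67.9 was 1413 bp wide. At Irf8 the widest DHS lay inside the gene, 10.3 kb after the main TSS, and counted through an internal start, while the DHS at the main TSS was 1808 bp wide. The order by width also depended on how DHS were divided. When DHS closer than 500 bp were merged, the widest promoter DHS spanned 7166 bp at Irf5, 5993 bp at Irf8, 3697 bp at Irf2, where 4 DHS joined, and 3498 bp at Irf4.

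**Figure D2:**
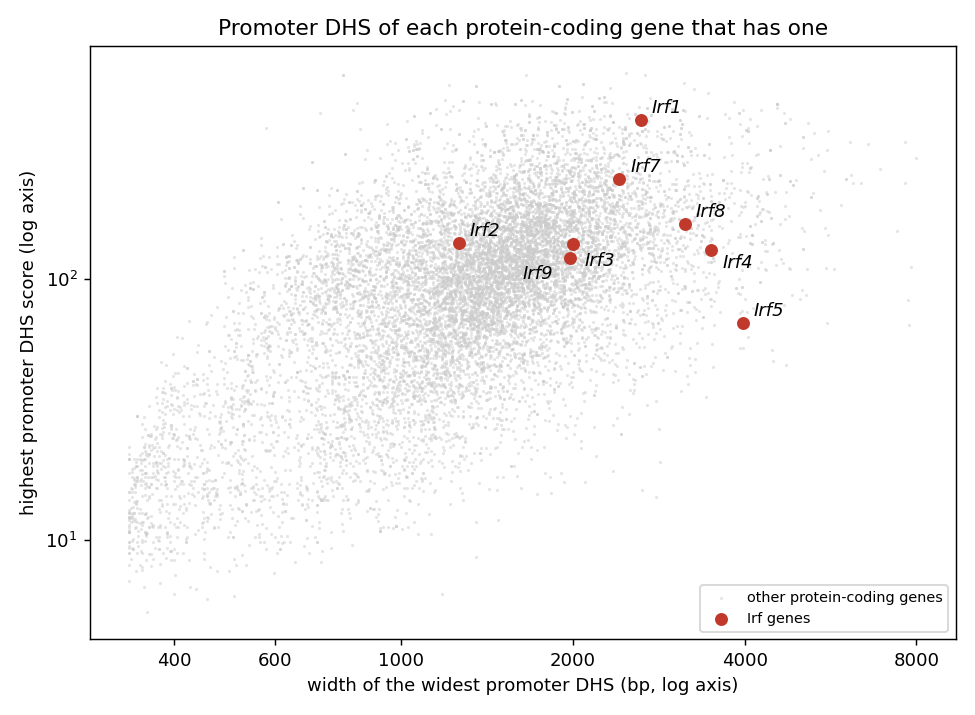
Width of the widest promoter DHS in bp (horizontal, log axis) against the highest promoter DHS score (vertical, log axis), one point per protein-coding gene with a promoter DHS. The 8 Irf genes are in red, the other genes in grey. Irf1 has the highest score of the family (408.63), Irf5 the lowest highest score (67.9) and, in another of its DHS, the greatest width (3973 bp), and Irf2 the smallest width (1261 bp).

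The number of DHS in a window ranged from 9 for Irf5 to 26 for Irf8. Counts were 10 for Irf1, 23 for Irf2, 15 for Irf3, 16 for Irf4, 11 for Irf7 and 11 for Irf9, with a median of 13 beside 5 for all protein-coding genes. Because Irf2 is 107714 bp long, its window was larger than the others. Per 100 kb of window, Irf8 held 21.6 DHS (95% exact Poisson interval 14.1 to 31.7), Irf3 14.3, Irf4 13.6, Irf2 11.1, Irf7 10.6, Irf9 10.3, Irf1 9.23 and Irf5 7.81 (3.57 to 14.8). The density at Irf8 lay at the 99.7th percentile of protein-coding genes, whose median was 3.38. The intervals of the 8 genes all overlapped, that of Irf8 and that of Irf5 by the narrowest margin.

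The DHS were then divided by class. Of the 121 DHS, 23 lay in the promoter window of the Irf gene itself, 31 in that of another gene only, and 67 were distal. The distal share was 55.4% (95% Clopper-Pearson interval 46.1 to 64.4), an interval that held the 52.5% found over all DHS. At single genes it was 87.5% for Irf4, 82.6% for Irf2, 76.9% for Irf8, 5 of 10 DHS for Irf1, 40.0% for Irf3, 22.2% for Irf5, 9.09% for Irf7 and 0% for Irf9. The count of 0 among 11 DHS at Irf9 allowed a share of up to 28.5% (Clopper-Pearson), for counting error only, since the DHS of a window are not independent draws. The windows of Irf2, Irf4 and Irf8 held no main TSS of another protein-coding gene, whereas that of Irf9 held 11, that of Irf7 held 6 and that of Irf3 held 5. The window of Irf1 held 3 and that of Irf5 held 1, so that Irf5, with fewer neighbouring starts than Irf1 or Irf3, had a lower distal share than both. The part of gene spacing in the distal share was not tested.

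**Figure D3:**
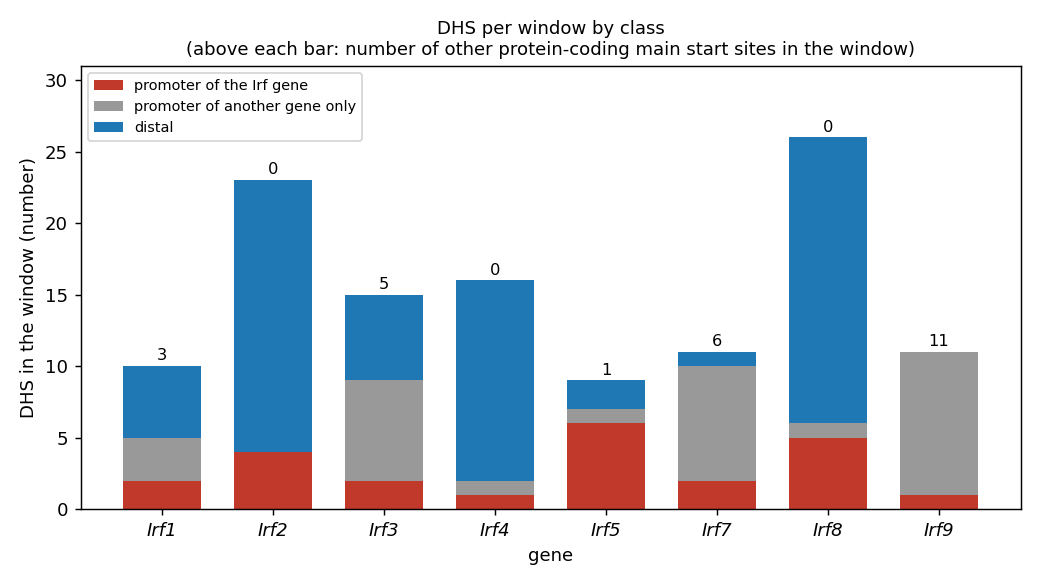
Number of DHS in the window of each Irf gene, stacked by class: promoter of the Irf gene (red), promoter of another gene only (grey) and distal (blue). The number above each bar counts the main TSSs of other protein-coding genes in the window. The 3 genes with 0 such TSSs, Irf2, Irf4 and Irf8, have 19, 14 and 20 distal DHS.

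Among the 67 distal DHS, 27 were intergenic, 31 intronic and 9 touched an exon. The intronic count included 19 from the Irf8 window, which lies entirely inside Gm20388, a gene record of 4434882 bp, so most of these would be intergenic without that record. Distal scores were low, with a median of 22.81 beside 24.33 for all distal DHS. At the upper end, 14 of the 67 (20.9%) reached 53.32, the median score of promoter DHS, as did 17.2% of all distal DHS, a share close to that of the family. Irf8 contributed 4 of the 14, Irf1, Irf2 and Irf4 3 each, and Irf5 the remaining DHS.

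Irf3 and Irf7, the factors that switch on type I interferon genes after virus sensing, lay in gene-dense windows on chromosome 7. Irf3 (ENSMUSG00000003184.8, chr7:52253018-52258218, plus strand) had a promoter DHS of 2004 bp with a score of 136.3 that covered the TSS, exon 1 and part of intron 1, and a small DHS 1.31 kb upstream with a score of 15.32. Both were shared with Bcl2l12, a Bcl-2 family gene that starts 69 bp away on the opposite strand, so the signal could not be assigned to either gene. The highest score in the Irf3 window, 172.41, belonged to the promoter of Prr12 and Prrg2, 56.0 kb downstream, and its best distal DHS, in an intron of Prr12, reached 45.46.

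Irf7 (ENSMUSG00000025498.7, chr7:148448605-148452380, minus strand) is a gene of 3776 bp that is itself induced by interferon. Its main promoter DHS spanned 2413 bp from upstream of the TSS into exon 6, with a score of 241.89. A weaker DHS with a score of 39.44 lay 2.51 kb upstream in the neighbouring gene Cdhr5. The main DHS held ISRE words 377 bases downstream of the TSS, in an intron, and 642 bases downstream, in an exon, and the upstream DHS held another. The word in the intron read, with 10 bases on both sides on the plus strand (word at chr7:148451999-148452008), as follows.
Irf7 intron ISRE: tgcatctcagGAAAATGAAAcctaaacagt

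Irf7 had a single distal DHS, with a score of 27.21, in an intron of Deaf1 49.5 kb upstream. The other 8 DHS of its window lay in promoter windows of neighbours.

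Irf5, which acts downstream of Toll-like receptors in B cells and macrophages, differed from Irf3 and Irf7 in having many modest DHS at its start. The gene (ENSMUSG00000029771.5, chr6:29476625-29491869, plus strand) had 6 promoter DHS, of which 4 lay around the main TSS. From upstream to downstream these were centred at 2.41 kb before the TSS with a score of 67.9, at 1.43 kb with 15.69, at 0.577 kb with 27.24, and at 2.06 kb after the TSS with 56.67. The last was the widest DHS at any Irf promoter, covering part of exon 1 and intron 1. The main TSS lay in a gap between DHS, 90 bp from the nearest edge upstream and 77 bp from the nearest downstream. Another annotated start of Irf5 lay inside the widest DHS. The remaining pair of promoter DHS, with scores of 54.71 and 30.8, lay over exon 9 at 10002 and 10619 bp after the main TSS. The first also reached into intron 8, and both counted as promoter DHS through an internal annotated start. The highest distal DHS, 9.30 kb upstream with a score of 66.04, carried a CTCF word, the core of the site of the insulator protein CTCF. The DHS 2.41 kb upstream of the TSS held an EICE word close to its centre (chr6:29474210-29474219, minus strand), shown as the composite site nearest the middle of a promoter DHS of the family.
Irf5 upstream EICE: agaggaagagGGAACCGAAAgaaacccagt

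Irf9, the DNA-binding subunit of ISGF3, lay in the most gene-dense of the windows, on chromosome 14. The gene (ENSMUSG00000002325.8, chr14:56222408-56228867, plus strand) had 1 promoter DHS of 1976 bp with a score of 121.04, which covered the TSS and reached exon 3. All other DHS of the window, 10 in number, were promoter DHS of neighbours, and the highest of them, at Dcaf11, had a score of 343.56, above that of Irf9. The promoter DHS shared by Psme2, Rnf31 and Fam158a, 12.2 kb upstream of Irf9, scored 258.56, and that of Psme1, 25.0 kb upstream, scored 157.13. Psme1 and Psme2 encode the interferon-inducible proteasome activator subunits, and were named after their values were seen. Both DHS held an ISRE word, as did 12.6% of all promoter DHS over their whole width, and the promoter DHS of Irf9 held none. The Irf9 DHS did hold GAS words downstream of the TSS.

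Irf1 and Irf2, which bind the same sites with opposite effects, had unlike surroundings. Irf1 (ENSMUSG00000018899.9, chr11:53583516-53591876, plus strand), induced by interferon gamma, had the highest promoter score of the family, 408.63, in a DHS of 2628 bp over the TSS, exon 1 and intron 1. Its other promoter DHS, over exon 3 at 2.68 kb after the TSS, scored only 8.41 and lay also in the promoter window of Gm17334. Upstream, towards Il5, the Irf1 window held distal DHS with scores of 228.33 at 32.6 kb, 62.46 at 21.5 kb, 39.54 at 11.5 kb and 166.58 at 6.34 kb before the TSS. The DHS at 32.6 kb had the highest score of any distal DHS of the family, at the 99.4th percentile of all distal DHS, and held 2 CTCF words. The DHS at 6.34 kb, at the 98.4th percentile, was the one with the GAS, kappa B and ISRE words printed above. Past the gene the only distal DHS, 16024 bp after the TSS, scored 45.61.

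Since the study concerned p53, the p53 element, a pair of decamers with the known core, was also searched with at most 2 mismatches. In the 121 DHS of the family it was found once, in the Irf1 promoter DHS 1029 bases before the TSS (chr11:53582478-53582497, plus strand), with 2 mismatches. Over all DHS, 1.02% held such an element. It is printed because it was the only match of its kind in these windows.
Irf1 p53 word: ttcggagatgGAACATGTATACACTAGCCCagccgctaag

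Irf2 (ENSMUSG00000031627.7, chr8:47825099-47932812, plus strand) is the longest gene of the family and had 4 promoter DHS, with scores of 11.08, 99.74, 138.09 and 82.83 from upstream to downstream. The TSS lay between the middle pair, with the nearest DHS ending 174 bp upstream and the next beginning 5 bp downstream. All 4 were also in the promoter window of Gm16675, a divergent noncoding gene. The gene body held 9 distal DHS: 6 in intron 1, with scores from 12.69 to 53.27, a pair in intron 2 with 12.31 and 13.51, and a DHS of 2085 bp over exons 8 and 9 with 84.66. The DHS with the highest distal score at Irf2, 94.98, was also the widest of all 121, at 4502 bp, and began 1135 bp past the gene end. It held both an ISRE and an EICE word, as did the DHS over exons 8 and 9. The 3 DHS upstream of the promoter, between 26.4 and 32.5 kb, scored 7.64 to 56.77.

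Irf4, needed for class switching and plasma cell differentiation, had 1 promoter DHS. The gene (ENSMUSG00000021356.3, chr13:30841095-30858796, plus strand) carried it as a single stretch of 3498 bp with a score of 129.72, at the 98.1th percentile of width, over exons 1 to 3. The promoter was poor in CpG, with 0.365 times the expected number of CpGs. The DHS held kappa B words, of which none lay in the 600 bp around the TSS. Of the 14 distal DHS, 4 lay in the gene body: a DHS over exon 8 at 11.9 kb after the TSS, of 2191 bp with a score of 83.36 and 2 ISRE words, and 3 over exon 9 with scores of 28.41, 35.47 and 52.52, of which the second lay within its untranslated part and the last ran past the gene end. Downstream of the gene, DHS at 37.2 and 43.1 kb after the TSS scored 83.8 and 84.03, the latter being the highest distal score of the window. Upstream, the 4 distal DHS were weak, with scores from 7.51 to 29.78. A DHS 20.8 kb upstream with a score of 50.67 was not counted as distal because it lay in the promoter window of Gm11370. For all 16 DHS of the window, Irf4 was the nearest protein-coding gene start.

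Irf8 (ENSMUSG00000041515.3, chr8:123260258-123280594, plus strand) had the largest number of DHS. Its promoter DHS at the main TSS scored 163.01 over 1808 bp, and 4 further DHS inside the gene, at 6.36, 7.60, 10.3 and 14.3 kb after the TSS, counted as promoter DHS through internal annotated starts, with scores of 13.95, 86.8, 57.49 and 7.59. The one at 10.3 kb was the widest of the window, at 3145 bp over exons 4 and 5. The score of the main promoter was exceeded by a distal DHS 10.9 kb upstream, with 186.19, at the 98.8th percentile of all distal DHS, and holding an ISRE word. The next distal scores were 143.25 at 34.5 kb upstream, 105.89 at 60.3 kb downstream, whose DHS held the row of 4 ISRE words and a separate CTCF word, and 99.24 at 23.9 kb downstream. The other 16 distal DHS scored between 7.23 and 47.26. Of the 8 genes, Irf8 was the only one whose highest distal DHS scored above its own highest promoter DHS.

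**Figure D4:**
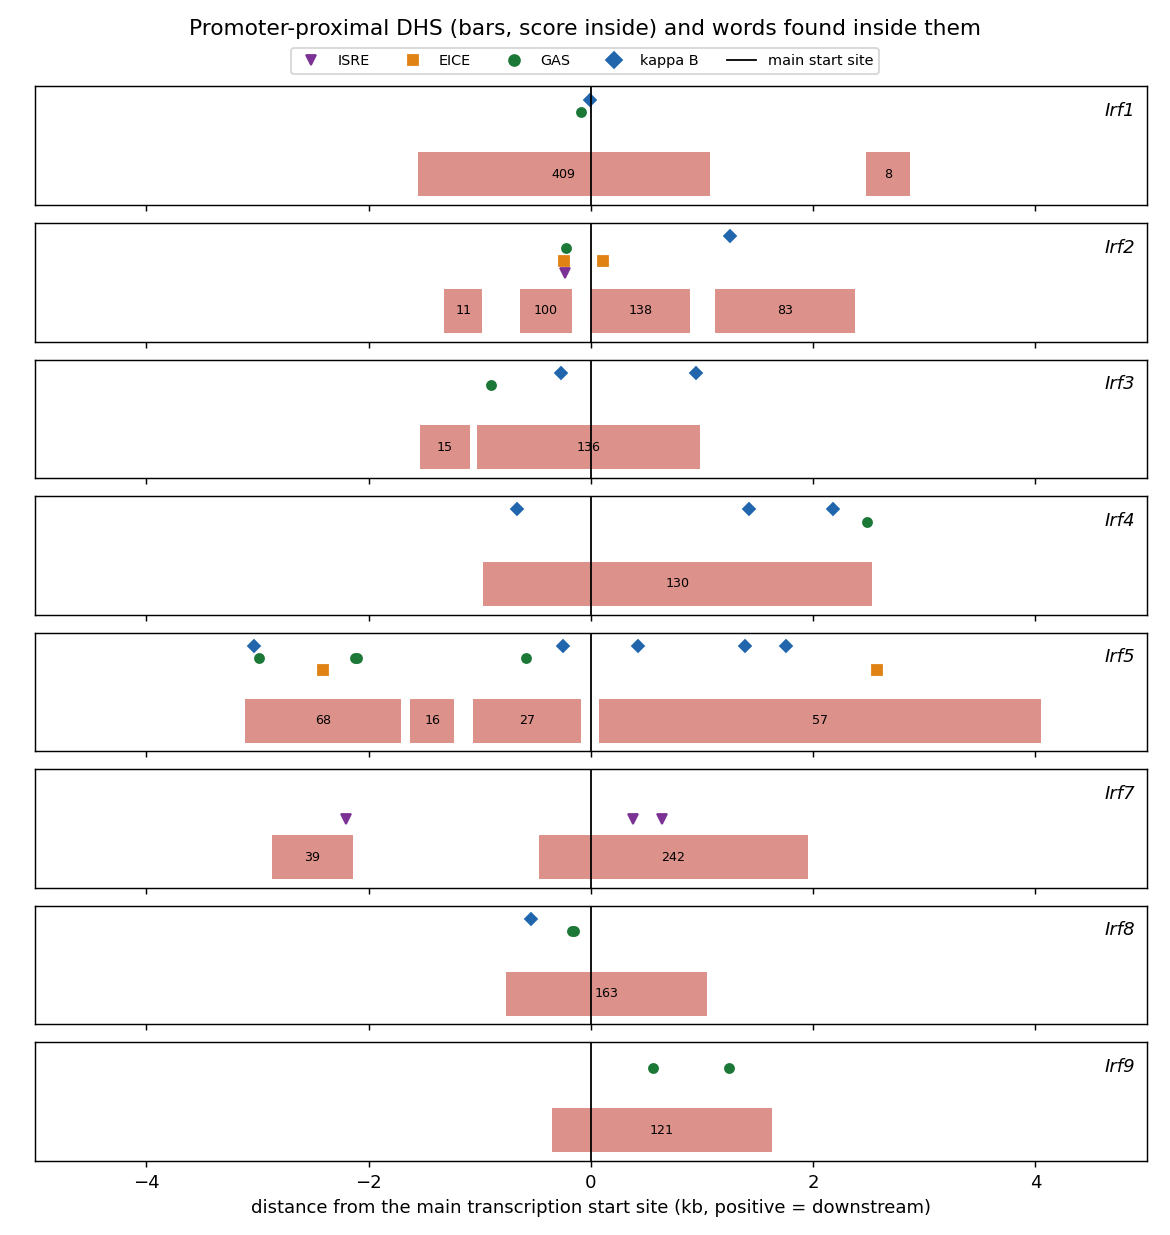
Promoter-proximal DHS of the 8 Irf genes within 5 kb of the main TSS, drawn along the direction of transcription. Red bars are DHS with the rounded score inside, the black line is the main TSS, and symbols mark ISRE, EICE, GAS and kappa B words inside the DHS. The main TSS of Irf2 and Irf5 falls between DHS, and the single DHS of Irf4 extends furthest downstream of the main TSS among those that cover it.

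The binding words were then compared with their frequency elsewhere, as letters only, searched on both strands. In the central 300 bp of each DHS, an ISRE word occurred in 5 of the 121 DHS of the family (4.13%) and in 3.95% of all DHS. An EICE word occurred in 6 (4.96%, all DHS 3.58%), a GAS word in 13 (10.7%, all DHS 8.33%), a kappa B word in 9 (7.44%, all DHS 7.94%) and a CTCF word in 5 (4.13%, all DHS 3.44%). Over whole DHS, which differ in width (median 798 bp in the family, 760 bp in all), a GAS word occurred in 37 (30.6%, all DHS 22.7%), a kappa B word in 32 (26.4%, all DHS 20.8%), an EICE word in 15 (12.4%, all DHS 9.84%) and a CTCF word in 7 (5.79%, all DHS 4.88%). For the 23 promoter DHS of the Irf genes, the whole-DHS share was 43.5% for GAS and 39.1% for kappa B, beside 24.5% and 27.6% of all promoter DHS. In the central 300 bp of the same 23 DHS, the share was 8.70% for GAS (all promoter DHS 7.44%), and a kappa B word occurred in 0 (all promoter DHS 9.71%). The direction for kappa B thus turned with the stretch searched, and the widest promoter DHS of the Irf genes had a median of 2520.5 bp beside 1400 bp over all genes with one. No test of these differences was made. The 5 central ISRE words lay in 3 distal DHS of the Irf4 window, with scores of 10.15, 7.51 and 83.36, in the Irf7 promoter DHS and in the Psme1 promoter DHS.

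In the 600 bp around the main TSS, from 500 bp upstream to 100 bp downstream, an ISRE and an EICE word occurred at Irf2 alone, against 7.69% and 5.83% of all protein-coding genes. A GAS word occurred at Irf1, Irf2 and Irf8 (16.4% of all genes), and a kappa B word at Irf1, Irf2, Irf3 and Irf5 (15.4% of all genes). No gene of the family had a CTCF word (0.729% of all genes) or a p53 element (0.541%) there. Irf2 was therefore the only gene with ISRE, EICE, GAS and kappa B words together in this window. Its kappa B word, centred 13 bases before the TSS, lay in the gap between DHS, whereas its ISRE, EICE and GAS words lay in a DHS. No ISRE word of these letters lay in the 600 bp windows of Irf7 and Irf9.

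Partners, activators and targets of the family were looked up as lists of genes drawn from general knowledge, with earlier results of these data known, and read against the 57.0% of all protein-coding genes with a promoter DHS. The cofactors Irf2bp1, Irf2bp2 and Irf2bpl all had one (135.05, 565.34 and 254.14). Of the DNA-binding partners, Spi1, which encodes PU.1, had one with 137.94 and Spib one with 149.01, and Batf3 had none. All 15 activators of Irf3, Irf5 and Irf7, from Tlr7 and Tlr9 through Myd88 to Tbk1 and Mavs, had one, with a median of 102.65, and so did all 7 interferon receptor and kinase genes, with a median of 142.83. Among the interferon genes 1 of 5 had one, Ifng with 17.48, while Ifnb1, Ifna4, Ifne and Ifnk had none. Of the ISGF3 target genes 9 of 10 had one, with a median of 65.14, and Oas1a had none.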

How the data were processed

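DNaseI-seq and input libraries were made from B220-enriched splenic B cells. Per the submitters' processing notes, BWA 0.6.2, SAMtools and the mm9 build were used. The peak list deposited by the authors gave 47542 intervals with a score per DHS, from the MACS peak caller; its version and settings for this library, the scale of the score and the use of the input are not given in the sources used here. Chromosomes 1 to 19 and X were kept (47474 DHS), and 1 interval that ran past a chromosome end was cut there for sequence.

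Genes, exons and TSSs were taken from GENCODE M1 (NCBIM37, the same build). A DHS counted when it overlapped by at least 1 bp. The main TSS was the one shared by most protein-coding transcripts, or the most upstream of these in a tie. A promoter was CpG-rich when the 1000 bp around it reached 55% GC and 0.6 times the CpG number that its base composition gives. Percentiles give the share of genes or DHS with a lower value. Words allowed no mismatch, except the p53 element (at most 2). Older symbols were matched through RefSeq gene names.

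Named were all 8 genes, their promoter DHS, the highest distal and the widest DHS, neighbours with the highest score or a shared DHS, and list genes that stood apart by presence of a promoter DHS. Members and lists were chosen with earlier results of these data known. Scripts used Python 3.11.15, numpy 2.4.6, pandas 2.3.3, scipy 1.17.1 and matplotlib 3.10.9, and were tested on simulated data. The only group was 1 library, so no test was run. Alternatives changed the window, promoter, score minimum, merging and word search. Some listed genes are not reported here.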

Additional observations from a re-analysis of the deposited data

How the results depend on the processing

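All 8 genes kept a promoter DHS when the promoter was 1 kb on both sides of a TSS, when the DHS had to reach the median score, when its centre had to lie in the window, and with the main TSS only. The median highest promoter score was 137.2 in 2 alternatives and 125.4 when the widest DHS was used. The number of DHS was 30 in gene bodies, 52 with 10 kb and 189 with 100 kb on both sides, 60 at or above the median score, 71 where the Irf gene had the nearest protein-coding TSS, and 93 after merging. The distal share was 64.5% with 1 kb promoters and 40.0% at or above the median score, and between 46.7% and 59.5% in the other 3 alternatives. ISRE words were found in 15 whole DHS (12.4%, all DHS 11.6%), in 0 within the central 150 bp (all DHS 2.01%) and in 44 with at most 1 mismatch (36.4%, all DHS 39.5%). Of the 60 DHS at or above the median score, 3 held one in the central 300 bp (all DHS of that score 3.87%). No paired analysis was possible because there was 1 library, and no replicate could be left out. The unknown depth limits weak DHS most: a site that was not called may still be accessible, and differences between scores have no error estimate.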
